A study of Rattus norvegicus with 6 samples.

Results

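The mouse islet circRNA annotation held 4342 exon circRNAs with no circBase entry and a genomic span of 10 kb or more. They were chosen from its rows by 3 columns: the class given as exon, an empty circBase field, and an end minus start plus 1 of at least 10000 bases. They made up 27.3% of the 15925 circRNAs annotated, 29.6% of the 14675 exon circRNAs and 48.5% of the 8957 exon circRNAs absent from circBase. The closest to the limit were a Cadps circRNA of 10000 bases and a Bard1 circRNA of 10003 bases inside it, and circRNAs of Samd8 (9997 bases) and Tm9sf4 (9989 bases) outside it. The authors built the annotation with CIRI2 and find_circ on sequencing reads that an earlier study had obtained from mouse islets. Its abundance value is the authors' mean of DESeq2-normalized back-splice junction reads over 2 samples labelled ND, so it has no replicate error and its depth is unknown. The series also measured rat cells: 3 libraries after a gapmeR against ci-Ins2 and 3 after a control gapmeR, from dissociated islet cells of Wistar rats aged 12 weeks, collected 48 h after transfection.

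An exonic circular RNA forms when the spliceosome joins a downstream donor splice site back to an upstream acceptor. The exons in between then close into a ring without free ends. Rings lack the ends that exonucleases attack and often persist longer than the linear transcript of the same gene. The junction read marks only these outer ends, and introns between them are usually removed, so a span of many kilobases is the distance between the ends in the genome and not the length of the RNA. circBase is a public catalogue of circRNAs, as are circAtlas and CIRCpedia, and a host gene is the gene whose exons supply the ring. The paper names the mouse build mm10 for the mouse transcriptome, and no source used here states the build for the coordinates of this table.

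The most abundant of these circRNAs included rings of genes that act in secretion, protein turnover and RNA processing. The highest mean, 139 normalized junction reads, was that of circ_00180 of Rims2, an active-zone scaffold for exocytosis. It lies on the plus strand of chromosome 15 from 39274975 to 39292312 and spans 17338 bases. The next, circ_00175 of the ubiquitin ligase gene Arih1, had a mean of 135 over 28348 bases on chromosome 9. The third was circ_00248 of Sytl5, a synaptotagmin-like Rab27 effector on chromosome X, with a mean of 97.1 and a span of 29280 bases. Behind these 3 the means dropped to 74.8 for circ_00396 of Fkbp9, a prolyl isomerase of the endoplasmic reticulum, and 65.9 for circ_00437 of Glt1d1, a putative glycosyltransferase. The tRNA-modifying enzyme Cdkal1 followed with circ_00799 at 62.6, and the splicing regulator Ptbp3 with circ_00375 at 59.9. The long noncoding RNA A230057D06Rik (55.6), the Mediator kinase Cdk8 (55.6), the U1 snRNP factor Luc7l2 (55.2), the zinc finger gene Zc3h15 (53.2) and the actin regulator Cobll1 (50.9) closed the 12 members with a mean of 50 or more. Among all 15925 circRNAs, however, circ_00180 ranked 178th.

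Members 13 to 20 by mean lay between 43.3 and 49.4. They included circ_00541 of Pcsk2, the prohormone convertase that cleaves proinsulin, with a mean of 49.4 over 61639 bases, and circ_00415 of the cGMP phosphodiesterase Pde5a, with 48.8 over 20770 bases. A second Rims2 circRNA, circ_00823, reached 45.4. It uses the same donor, at 39292312, as circ_00180 and an acceptor further upstream, which gives it a span of 54400 bases. Gpd2, the mitochondrial glycerol phosphate dehydrogenase, had circ_00677 at 44.3, the bicarbonate transporter gene Slc4a7 had circ_00797 at 44.1, the utrophin gene Utrn had circ_00731 at 43.5, and Zc3h14, which encodes a poly(A)-binding protein, had circ_00700 at 43.3. Fam185a completed this group with circ_00802 at 47.8.

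The abundant members were exceptions in a class of low means. Across all 4342, the median mean was 1.99 normalized junction reads (quartiles 1.04 and 4.03), against 2.08 for the 4615 exon circRNAs absent from circBase that span under 10 kb and 6.93 for the 5718 exon circRNAs listed in circBase. A mean of at least 5 was reached by 823 members (19.0%), against 20.7% of the shorter absent circRNAs and 58.9% of the listed ones. A mean of at least 10 was reached by 280 (6.45%), against 7.17% and 39.0%. The lowest value of the table, 0.952, was held by 609 members (14.0%), against 14.1% of the shorter absent and 4.14% of the listed circRNAs. Members were thus close to the shorter absent circRNAs and below the listed ones, and while they formed 29.6% of the exon circRNAs by number, they held 9.26% of the summed mean. These are values without replicates, and circRNAs of 1 host share its transcription, so no test was run over them.

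**Figure D1:**
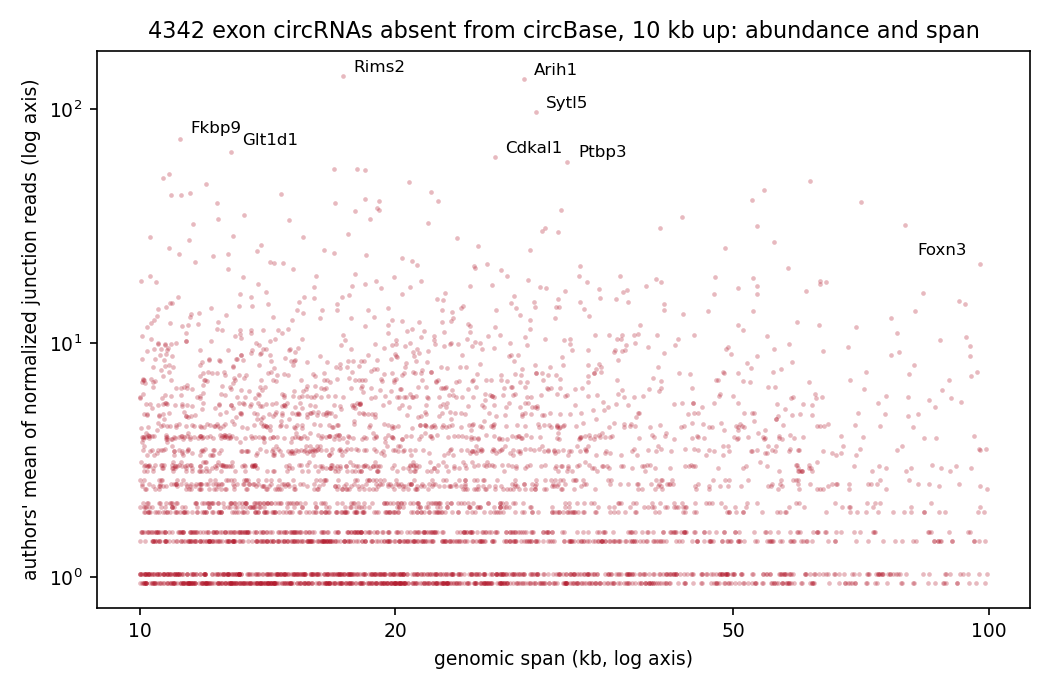
Each point is a member, with its genomic span in kb (x, log axis) and the authors' mean of normalized junction reads (y, log axis). Many points lie in horizontal bands at low means at every span, with a median of 1.99 and 14.0% of members at the lowest value of 0.952. The named genes host the members with the 7 highest means and the widest member with a mean of at least 10 (Foxn3).

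Span and abundance were close to unrelated. The span had a median of 19986 bases (quartiles 13927 and 31681) and reached 99646 bases, which is also the widest of any circRNA in the table. In the class of 10 to 20 kb there were 2172 members, in that of 20 to 50 kb 1702 (39.2%) and in that of 50 to 100 kb 468 (10.8%). Their median means were 2.08, 1.99 and 1.99, and the shares with a mean of at least 10 were 5.99%, 6.93% and 6.84%. Across the 4342 members, which share libraries and often a host, Spearman's rho between span and mean was -0.02. The plot of mean against span shows the same spread of means in each class.

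The widest members had low means, with 1 exception. The widest, circ_08388 of the organellar sodium/proton exchanger gene Slc9a7, spans 99646 bases on chromosome X and had a mean of 2.38. The next were circRNAs of Sgms1, a sphingomyelin synthase (99632 bases, mean 1.04), and of Ccdc91 (99213 bases, mean 3.55). Wdr49, Snd1, Tcf12, Ehbp1, Ccdc148 and Dtnb hosted the following 6, with means between 0.952 and 3.51. The tenth, circ_01072 of the forkhead repressor gene Foxn3, stood apart from these with a mean of 21.9 over 97682 bases. Next to it in span among the members with a mean of at least 10 were circ_03167 of Fndc3a (94019 bases, mean 10.7), circ_01111 of the transcriptional corepressor gene Rere (93857 bases, mean 14.8) and circ_02146 of Cdkal1 (92198 bases, mean 15.2).

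The members came from 1861 host genes, which are 44.4% of the 4194 genes that host any exon circRNA. A single member was found in 919 hosts (49.4%), whereas the 217 hosts with 5 or more held 1526 members (35.1%) and the 30 hosts with 10 or more held 379. Hosts averaged 2.33 members each, against 1.76 circRNAs per host among the shorter absent circRNAs and 2.22 among the listed ones. The share of hosts with 5 or more was 11.7%, against 4.97% and 10.6%.

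Among the hosts with the most members, the mitochondrial ATPase gene Vwa8 had 21 between 11407 and 78938 bases, the highest with a mean of 16.8, and Nbas, whose product tethers vesicles to the endoplasmic reticulum, had 19. Ccdc162 had 18, with none listed, and Ptprn2, the insulin granule membrane protein phogrin, had 15. Pde5a, the chromatin factor gene Ubn2, the deubiquitinase gene Usp34 and the cell polarity gene Patj had 13 each. Pik3c2a, a phosphoinositide kinase gene, Map3k15, 9330182L06Rik, Pkhd1, the histone methyltransferase gene Ash1l and the chromatin remodeller gene Chd2 had 12 each. Mllt10, Vps13b, Agtpbp1, the ubiquitin ligase gene Mib1 and Scaper had 11 each.

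**Figure D2:**
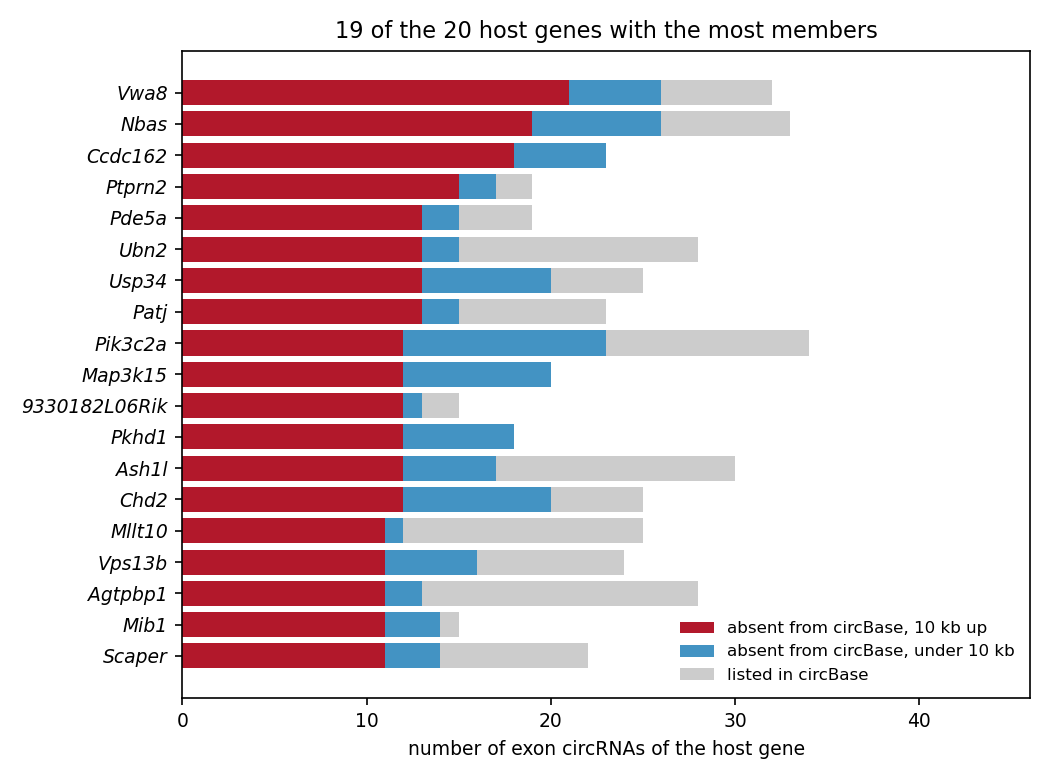
Bars give the number of exon circRNAs of 19 of the 20 hosts with the most members, split into members, shorter circRNAs absent from circBase and circRNAs listed in circBase. Ccdc162, Map3k15 and Pkhd1 have no listed circRNA, while Agtpbp1 (15), Ubn2, Ash1l and Mllt10 (13 each) have more listed circRNAs than members or as many.

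Number and abundance ranked the hosts differently. By summed mean over members, Rims2 led with 251 from 10 members, and other high values were those of Pde5a (166 from 13), Arih1 (140 from 3), Slc4a7 (124 from 8), Sytl5 (123 from 9) and Zcchc2 (111 from 10). Members held 97.6% of the summed exon mean of Sytl5, 100% of that of Luc7l2, 90.5% of that of Fkbp9 and 86.9% of that of Zcchc2. In contrast, they held 13.5% in Pde5a and 10.3% in Pcsk2, where a circRNA outside the class had a mean of 401 and 662. Over all hosts the median share was 24.5%. In 1238 hosts (66.5%) circBase-listed circRNAs were also present, and 283 hosts (15.2%) had no exon circRNA other than members. Of the 1578 hosts with other exon circRNAs, a member had the highest mean in 307 (19.5%), among them Arih1, Glt1d1, Cdkal1, Fam185a, Gpd2, Slc4a7 and Zcchc2. Across the 1861 hosts, the number of members and the number of listed circRNAs, which depend on the same gene, had a Spearman's rho of 0.38.

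Members of 1 host were often built on a common splice site. Another member used the same acceptor, the upstream end, in 1652 cases (38.0%) and the same donor, the downstream end, in 1156 (26.6%), and 2324 members (53.5%) shared at least 1 end with another. The 4342 members used 3396 acceptors and 3713 donors. The acceptors used by most members were that of Zcchc2 at 106000930 on chromosome 1 and that of the intraflagellar transport gene Ift81 at 122611107 on chromosome 5, with 7 members each. The Zcchc2 acceptor carried members of 10885 to 32486 bases with a summed mean of 78.1. In Sytl5 the acceptor at 9913902 was shared by 5 members of 18966 to 80631 bases, of which circ_00248 held 97.1 of the summed mean of 106. Donors with most members were those of Specc1l and Dennd1b, with 6 each. In the potassium-dependent sodium/calcium exchanger gene Slc24a2, 5 members ended at the donor at 86996512 on chromosome 4, and the widest of these, circ_00860 with 79646 bases, had the highest mean (32.0).

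The 10 Rims2 members lay along the gene, and all but circ_14163 formed a chain in which neighbours overlap. The 3 most abundant, circ_00180 (139), circ_00823 (45.4) and circ_00808 (40.2), joined the acceptors at 39237913 and 39274975 to the donors at 39292312 and 39345620. Further downstream lay circ_01981, with a mean of 16.4 over 83759 bases, and circ_07911, which ends at the same donor and had a mean of 3.94. The other 5 had means of 0.952 to 1.90. Likewise, the 15 members of Ptprn2 formed an upstream group led by circ_01852 (15.7), circ_03627 (14.7) and circ_01985 (12.8), which share the acceptor at 116824316, and a downstream group led by circ_05371 (7.53). In Pde5a, circ_00415 (48.8), circ_00694 (34.6) and circ_01066 (31.2) shared the acceptor at 122774552.

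**Figure D3:**
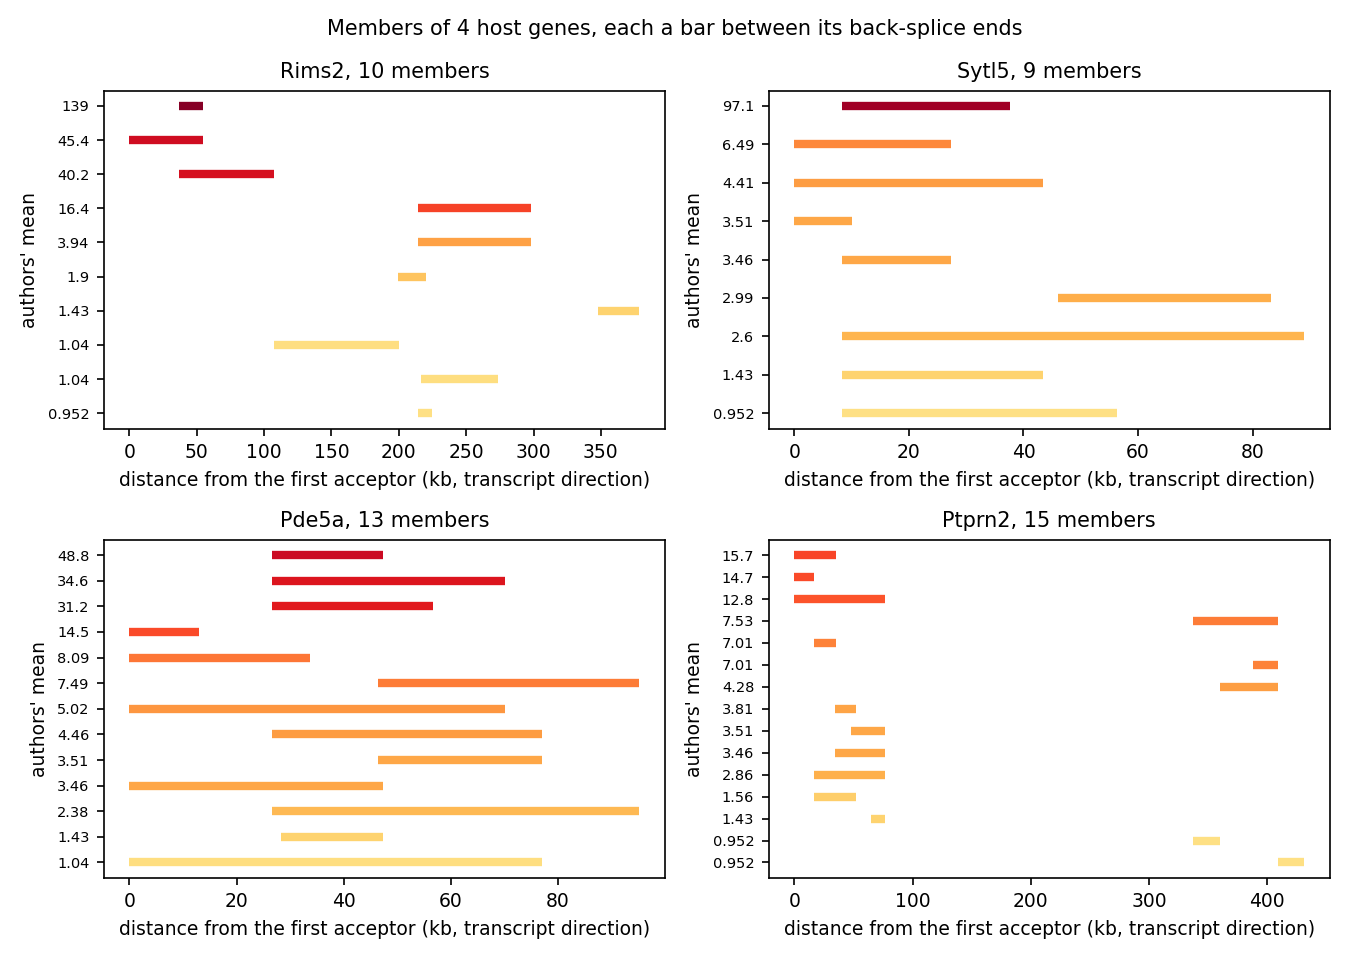
Each bar is a member of Rims2, Sytl5, Pde5a or Ptprn2, drawn between its back-splice ends as distance in kb from the most upstream acceptor, with its mean of normalized junction reads on the y axis and in the colour (darker is higher). Bars that begin at 1 position share an acceptor, such as the 5 of Sytl5 led by the one with a mean of 97.1.

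Many members also reused the ends of catalogued rings. An acceptor or donor of a circBase-listed exon circRNA on the same strand was used by 2155 members (49.6%), against 27.4% of the shorter absent circRNAs. The acceptor alone was shared by 1105 members (25.4%), the donor alone by 728 (16.8%) and both ends, with different partners, by 322 (7.42%). The corresponding shares were 14.0%, 11.5% and 1.91% among the shorter ones. Median means were 2.86 for members with both ends shared, 2.38 with the acceptor alone, 2.42 with the donor alone and 1.90 with neither. Median spans were 30908, 22799, 21060 and 17548 bases, so the members with both ends in use elsewhere were the widest. In addition, 1902 members (43.8%) enclosed a listed circRNA of their own host and 11 enclosed a circRNA of another host, among them 3 of Ttbk2 that enclose circRNAs of Cdan1. A longer region can enclose more, and this was not adjusted for. Among the abundant members, circ_00175 of Arih1 shared both ends with listed circRNAs, whereas circ_00248 of Sytl5 and circ_00396 of Fkbp9 shared neither.

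**Figure D4:**
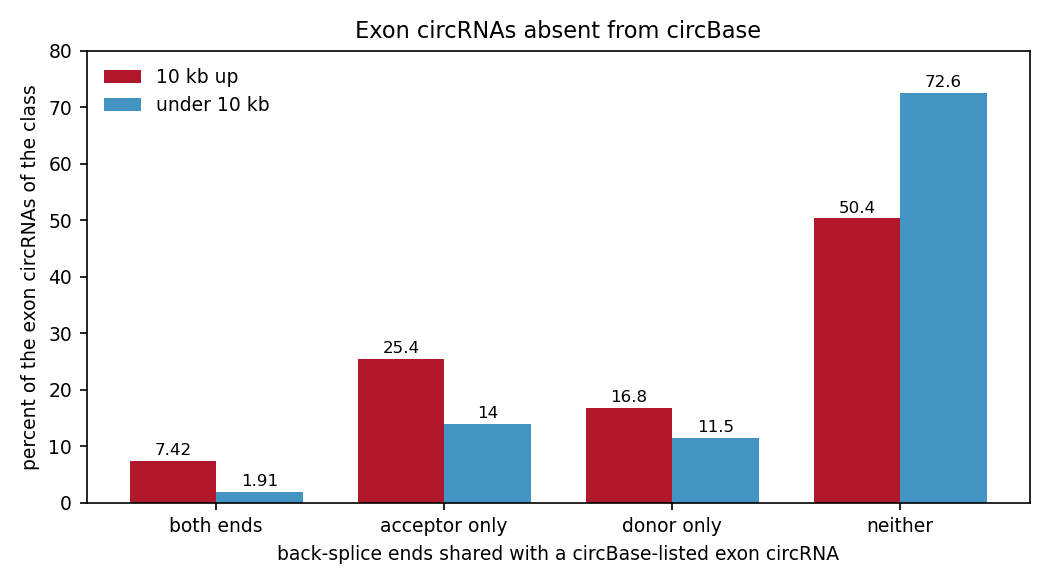
Bars give the percent of exon circRNAs absent from circBase whose back-splice ends coincide with those of a circBase-listed exon circRNA, for the 4342 members of 10 kb up and for the 4615 circRNAs under 10 kb. Sharing of both ends, of the acceptor and of the donor was more frequent among the members, and 50.4% of members against 72.6% of the shorter ones shared neither end.

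Other catalogues knew most of the members. A circAtlas entry was given for 93.1% and a CIRCpedia entry for 66.0%, against 91.7% and 66.0% of the shorter absent circRNAs and 99.9% and 94.6% of the listed ones. CIRCpedia entries were given for 81.4% of the members with both ends shared with listed circRNAs and for 58.3% of those sharing neither. An antisense gene was annotated at 117 members (2.69%), against 1.54% and 1.24%. By chromosome, members were 24.9% (chromosome 2) to 32.8% (chromosome 14) of the exon circRNAs on the autosomes. They were 39.9% (161 of 404) on the X chromosome and 38.5% (10 of 26) on the Y chromosome.

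Hosts with known islet functions were then described by gene lists. Of 25 genes of the insulin granule and hormone processing, 11 were hosts, with 55 members. Besides Ptprn2 (15 members) and Pcsk2 (10) these included Vps13b (11) and Vps13a (6), which are not themselves granule or hormone-processing genes. Ica1 (4), an islet autoantigen gene, was also a host. Of 66 exocytosis genes, 24 were hosts with 84 members, led by Rims2 (10), Sytl5 (9), the granule priming gene Cadps (8), and Unc13b and Erc1 (6 each). The median mean was 2.51 in both lists, against 1.99 over all members. In the lists described below it ranged from 1.90 (calcium channels, adhesion, motors and ubiquitin ligases) to 3.03 (transcription factors) and 6.69 (glucose list, 4 members). Pumps and calcium stores had 2.75 and chromatin regulators 2.47. The pore-forming calcium channel genes Cacna1c (4 members), Cacna1a and Cacna1d (3 each) and the auxiliary subunit gene Cacna2d1 (3) were the 4 hosts among 16 calcium channel genes. Their highest member was circ_02688 of Cacna1c (12.3).

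Among 43 genes of potassium, sodium and cation channels, 12 were hosts, with Unc80 (6), Kcnma1 and Nalcn (5 each) and Trpc1 and Ano6 (4 each) first. Ion pumps and calcium stores had 11 hosts among 30 genes, led by Slc24a2 (9) and the inositol trisphosphate receptor genes Itpr1 and Itpr2 (4 each). In the beta-cell transcription factor list 9 of 35 were hosts, led by the repressor gene St18 (9) and Rfx3 (6). Glucose sensing and glycolysis had 2 of 36, Gpd2 and the glutamate dehydrogenase gene Glud1, with 2 members each. None of the 46 marker genes of other pancreatic cells hosted a member, but only 5 of them had any exon circRNA. In the granule list 18 of 25 genes had one, and in the exocytosis list 36 of 66. Of all genes with an exon circRNA, 44.4% hosted a member.

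The remaining lists covered broader functions. The list of cAMP, diacylglycerol and receptor signaling had 27 of 62, including the cGMP phosphodiesterase gene Pde5a (13). Pde3b and the cAMP-activated exchange factor gene Rapgef4 had 6 each. Adhesion and axon guidance had 21 of 85, led by the scaffold gene Dlg1 (6), whose circ_01191 had a mean of 21.5. Microtubule motors and cytoskeletal linkers had 32 of 59, with Lrba (8), which is not itself a motor or linker gene, and Dync2h1 and Clasp2 (7 each). The list also held the myosin gene Myo9a, whose circ_01461 had a mean of 23.9. Chromatin regulators had 41 of 79 with 167 members, ubiquitin ligases 41 of 68 with 127, and RNA binding and splicing 29 of 75 with 74. In the last of these Esrp1, an epithelial splicing factor, had 5 members that held 95.4% of its exon mean. The lists differ in gene length and expression, for which the counts were not adjusted.

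The host genes were followed in the rat libraries of the ci-Ins2 knockdown. ci-Ins2 is a circular RNA from an excised insulin gene intron, not a back-spliced exon ring. A gapmeR is an antisense oligonucleotide that directs cleavage of its target. The libraries measured gene abundance, not these circRNAs, and ci-Ins2 itself was not analysed here. Values are the deposited transcript abundances divided by 10 and summed per gene, a scale that behaves like TPM, after division by a size factor per library. The 6 libraries expressed islet hormones, with Ins1 at 77568 to 78766 after ci-Ins2 knockdown and 79340 to 82240 in controls and Gcg at 20018 to 26650 after knockdown and 22212 to 27392 in controls. In such bulk RNA, fewer cells of a type and less RNA per cell cannot be told apart. Of 1861 hosts, 1718 (92.3%) had a rat gene of identical symbol and 1614 passed the filter on low values.

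Of these 1614 hosts, 171 (10.6%) fell and 11 (0.68%) rose in ci-Ins2 knockdown cells relative to control cells (limma, adjusted p under 0.05 over all genes), and 1432 did not pass. Over all 13927 genes tested, 3.5% fell and 1.01% rose. With the animal as replicate block, 312 hosts fell and 55 rose, beside 10.3% and 5.23% of all genes. The median log2 fold change was -0.04 over the hosts and 0.00 over all genes tested. When a ci-Ins2 library was left out, 94 (replicate 1), 109 (replicate 2) or 94 (replicate 3) hosts were lower and 4, 7 or 4 higher. When a control library was left out, 89 (replicate 1), 122 (replicate 2) or 71 (replicate 3) hosts were lower and 4, 5 or 4 higher. In each of these fits the percent of hosts called lower was above that of all genes, the smallest being 4.41% against 1.35%.

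Calls were also counted by the number of members. Lower calls were made for 81 of 482 hosts with 3 or more members (16.8%) and 38 of 193 with 5 or more (19.7%), with 2 and 0 higher calls (11 of the hosts with 5 or more were higher at an unadjusted limma p under 0.05). In the blocked fit these were 116 and 53 lower (24.1% and 27.5%), and 17 and 7 higher (3.53% and 3.63%). Of all genes, 10.3% fell and 5.23% rose in that fit. For the hosts with 5 or more members, leaving out a ci-Ins2 library gave 21 (replicate 1), 24 (replicate 2) or 21 (replicate 3) lower calls. Leaving out a control library gave 17 (replicate 1), 31 (replicate 2) or 16 (replicate 3). These calls were 8.29% to 16.1% of such hosts, beside 1.35% to 2.24% of all genes in the same fits. Genes that hosted other exon circRNAs but no member fell in 111 of 1932 cases (5.75%), and names without an annotated circRNA in 199 of 10332 (1.93%). With the block these shares were 12.0% and 8.42%, beside 19.3% of the hosts with members. The median level of hosts with members was 14.7 after knockdown and 16.1 in controls, and that of the other hosts 15.4 and 15.6. Hosts with 5 or more members had medians of 16.9 after knockdown and 19.1 in controls. Names without an annotated circRNA had 12.3 in both groups. Whether level plays a part in these shares was not tested. Gene length was not analysed here. Among 34 tested markers of other pancreatic cells, none fell by limma (1 at an unadjusted p under 0.05). The keratin genes Krt7, Krt18 and Krt19 rose, and which cells their RNA came from was not tested. In the blocked fit 7 of these markers fell and 4 rose. The list's summed level was 24673 to 31332 after knockdown and 26733 to 31291 in controls. Gcg alone had 20018 to 26650 after knockdown and 22212 to 27392 in controls. The stromal marker Col1a2 had 84.2 to 251 after knockdown and 125 to 303 in controls. A sum of this size therefore says little about duct, acinar or stromal cells. Of the list's 45 named genes 9 stayed below 1 in every library, and the list's part in the host counts was not tested.

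The 38 called hosts with 5 or more members had log2 fold changes of -1.29 to -0.28. All 38 passed with the block, and 15 passed in each fit without a library. Those fits, like the main one, ignored the pairing by animal. Rims2 had 11.5, 10.7 and 11.0 in ci-Ins2 knockdown cells, against 16.7, 14.7 and 18.0 in control cells. Its log2 fold change was -0.53 ± 0.08 (SE, n = 3 each, limma adjusted p = 0.0177), and it passed in 1 of 6 fits without a library. Ptprn2 had 146, 137 and 136 in knockdown cells, against 218, 208 and 209 in control cells, a log2 fold change of -0.60 ± 0.05 (limma adjusted p = 0.00165). In both genes, which were chosen for passing the test, the groups did not overlap.

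Nalcn, the sodium leak channel, had 1.85, 1.22 and 2.06 in knockdown cells, against 6.20, 4.48 and 6.27 in control cells (log2 fold change -1.29, limma adjusted p = 0.00843). Birc6, a ubiquitin-conjugating inhibitor of apoptosis, had 15.7, 16.5 and 15.0 in knockdown cells, against 41.5, 36.4 and 40.0 in control cells (-1.27, limma adjusted p = 0.000348). The groups did not overlap in either. On the log2(value + 5) scale the log2 fold change of the low gene Nalcn was -0.66 and that of Birc6 -1.10. Gphn, the gephyrin gene (-1.16), the neurabin gene Ppp1r9a (-1.01, or -0.46 with a pseudocount of 5), Rabgap1l (-0.98), the kinase anchor gene Akap13 (-0.98), the calcium-activated potassium channel Kcnma1 (-0.87), the kinesin gene Kif5c (-0.82) and the arginyltransferase gene Ate1 (-0.81) also fell. Rabgap1l passed in 2 of 6 fits without a library and the others in all 6. Utrn (-0.74), Cadps (-0.67) and Unc80 (-0.56) fell and passed in all 6, whereas Nbas (-0.35) and Zcchc2 (-0.33) passed in none.

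**Figure D5:**
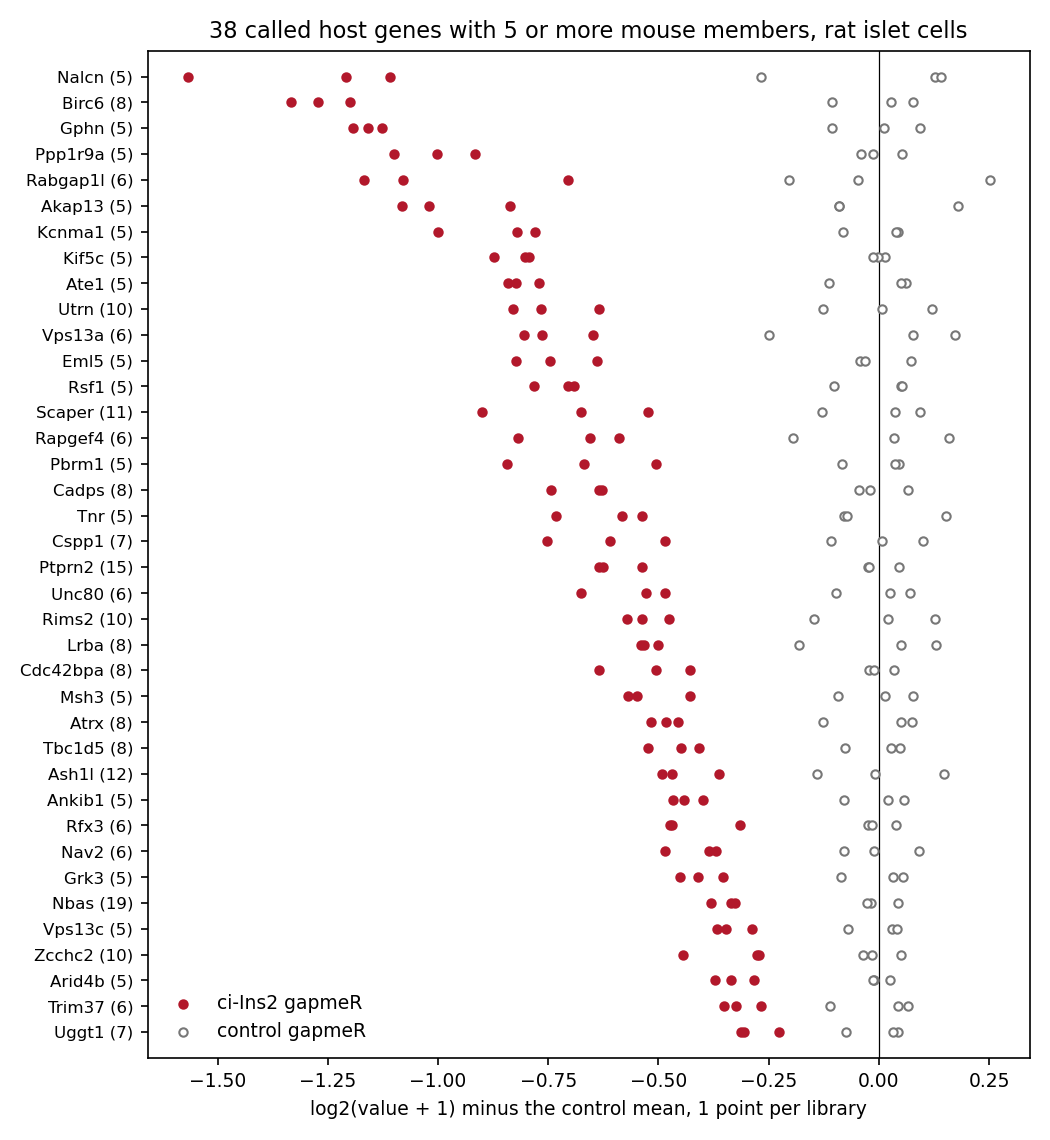
For the 38 called hosts with 5 or more members (number of members in parentheses), each point is a rat library: ci-Ins2 gapmeR filled and control gapmeR open, as log2(value + 1) minus the mean of the control libraries. The hosts were chosen for passing the test, and in every row the 3 ci-Ins2 points lie to the left of the 3 control points.

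Hosts with fewer members also fell. Frmd5, with 1 member, had 2.15, 2.36 and 1.56 in knockdown cells, against 17.0, 13.2 and 15.5 in control cells, a log2 fold change of -2.42 (limma adjusted p = 0.000359). Cacna1c, which encodes the pore of an L-type calcium channel and had 4 members, had 3.18, 2.65 and 2.26 in knockdown cells, against 15.8, 13.0 and 14.6 in control cells (-2.07, limma adjusted p = 0.000359). By this choice, every knockdown library of both genes was below every control. With a pseudocount of 5 the log2 fold changes were -1.52 for Frmd5, -1.34 for Cacna1c, -1.28 for Fars2, -0.86 for Mbd5 and -0.88 for Nf1. Fars2 (-2.01), the mRNA export factor gene Thoc2 (-1.83), the ubiquitin ligase gene Ubr1 (-1.58), Mbd5 (-1.56), the glutamate receptor gene Gria3 (-1.50), Fchsd2 (-1.46) and Nf1 (-1.40) also fell, each with 1 or 2 members, and each of these genes, Frmd5 and Cacna1c passed in every fit without a library.

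The hosts that rose and met the same criteria were 6. Fancm, a DNA repair helicase gene with 2 members, had 41.0, 39.0 and 35.8 in knockdown cells, against 18.9, 17.2 and 17.0 in control cells (log2 fold change 1.08, limma adjusted p = 0.00073). Gpd2, whose circ_00677 is among the abundant members, had 28.9, 30.3 and 31.4 in knockdown cells, against 21.2, 22.0 and 23.2 in control cells (0.43, limma adjusted p = 0.0113). Both kept their call without each library. Snx2 (0.36), the calcium sensor gene Stim2 (0.33), Fam49b (0.26) and Zc3h14 (0.23) rose less, and Snx2 passed in 1 of 6 such fits and the other 3 in none.

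Among the hosts of the most abundant members, Rims2 and Utrn were called lower and Gpd2 and Zc3h14 higher. Those given next had no call in the main fit, as had 1432 of the 1614 hosts tested. Arih1 averaged 40.9 in knockdown cells and 41.7 in control cells, and Ptbp3 averaged 77.5 in knockdown cells and 82.1 in control cells. Pcsk2 averaged 1072 in knockdown cells and 1123 in control cells (limma adjusted p = 0.614). Sytl5 averaged 17.1 in knockdown cells and 14.1 in control cells (limma adjusted p = 0.13), and passed as higher with the block (limma adjusted p = 0.0347). Pde5a averaged 0.317 in knockdown cells and 0.324 in control cells and was below the filter. Among the hosts with many members, Vwa8, Ubn2, Usp34 and Patj did not pass either, with mean values of at most 4.79 in knockdown cells and at most 5.29 in control cells.

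By list, the calls are to be read beside the 10.6% of all hosts and 3.5% of all genes that fell. In exocytosis 5 of 23 tested hosts fell (Rims2, Cadps, Rab3gap1, Erc2 and Exoc4), in voltage-gated calcium channels 2 of 4 (Cacna1c and Cacna1d), and in potassium, sodium and cation channels 4 of 9 (Unc80, Kcnma1, Nalcn and Ano6). In signaling 8 of 23 fell, among them Rapgef4, Akap13, Akap9 and Pde10a. In motors and linkers 8 of 30 fell, among them Nav2, Kif5c, Map2 and Lrba, of which Lrba is not itself a motor or linker gene. In beta-cell transcription factors 3 of 9 fell (Rfx3, Rfx7 and Myt1l), in chromatin regulators 6 of 38, among them Ash1l and Atrx, and in ubiquitin ligases 4 of 40 (Birc6, Trim37, Hace1 and Ubr1). In RNA binding and splicing 2 of 26 fell (Xrn1 and Mbnl1) and Zc3h14 rose. In the granule list 2 of 10 fell, Ptprn2 and Vps13a, of which Vps13a is not itself a granule or hormone-processing gene. In adhesion and guidance 3 of 16 fell (Pard3, Ptprt and Pcdh15), and in pumps and calcium stores 2 of 11, among them Itpr2, where Stim2 rose. Of the 2 glucose list hosts tested, Gpd2 rose. With the replicate block, 19.3% of all hosts and 10.3% of all genes fell, and 3.41% and 5.23% rose. The lower hosts in that fit were 8 of 23 in exocytosis, 13 of 23 in signaling and 16 of 30 in motors and linkers. They were 6 of 9 in transcription factors, 11 of 40 in ubiquitin ligases, 7 of 38 in chromatin regulators and 2 of 26 in RNA binding. In adhesion they were 6 of 16, in pumps and stores 4 of 11 and in the granule list 3 of 10. Calcium channels had 2 of 4, cation channels 4 of 9 and the glucose list 0 of 2. The higher hosts were 2 in exocytosis, 2 in RNA binding, and 1 each in the granule list, signaling, pumps and stores and the glucose list. The median log2 fold change over the tested hosts was 0.17 in the glucose list (2 hosts) and ranged in the other 12 lists from -0.45 (calcium channels, 4 hosts) to -0.02 (RNA binding, 26 hosts), against -0.04 over all hosts and 0.00 over all genes.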

How the data were processed

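The mouse circRNA table was made by the authors from islet data of an earlier study with CIRI2 and find_circ, keeping circRNAs that both found with 2 or more junction reads in a sample. The deposited mean, made by the authors, is a signal, the average of DESeq2-normalized junction reads over 2 samples; 6 columns of single samples were not used. Ends were compared by strand and position, with no tolerance. Rat reads were quantified by the authors with STAR 2.5.3a and RSEM 1.3.0. The deposited transcript abundances are a signal; the sources used here name neither their unit nor the depth, so no count test was run. They were divided by 10 and summed over 28656 gene names. Names with at least 1 in 3 or more of 6 libraries were kept, scaled by median-of-ratios size factors (0.962 to 1.035) and tested with limma 3.58.1 (R 4.3.3) on log2(value + 1), using a trend of variance on the mean and adjusting p-values over 13927 names by Benjamini-Hochberg. A fold change on this scale understates the change of low genes. Mouse and rat genes were matched by identical symbol. Python 3.11.15, pandas 2.3.3 and matplotlib 3.10.9 made tables and plots, and the limma step was tested on simulated data.

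Libraries with the same replicate number are paired, because the reporting summary of the study puts the groups of a replicate in the same animal. Deviations from the group means correlated at 0.462, 0.493 and 0.419 between libraries of the same number and at -0.157 to -0.266 between others. No block was used in the main model because the methods describe none. The adjusted p-values of the main model and the fits without a library therefore ignore the pairing, and leaving out a library leaves its partner unpaired. Members and gene lists were chosen with earlier results of these data known. Named circRNAs were the 20 with the highest mean, the 10 widest and the 4 widest with a mean of at least 10. Named hosts were the 20 with the most members, up to 5 per list, those the paper names, called hosts with 5 or more members, and up to 10 called hosts in each direction with the largest change, without overlap and with 5 or more as the higher group's mean. Other hosts named by their summed mean, shared ends or call within a list were chosen after their values were seen. Alternatives were other spans and minimum means, end tolerances, the block, pseudocounts, filters, no scaling, no trend and each library left out. The deposited lists of changed genes and pathways hold the authors' own fold changes and p-values, as do some columns of the circRNA table, and none of these were used. Some genes that meet the naming rule are not reported here.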

Additional observations from a re-analysis of the deposited data

How the results depend on the processing

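Raising the minimum span to 20000 bases gave 2170 circRNAs, 1069 hosts and 88 hosts with 5 or more members. A minimum of 5000 bases gave 6328, 2513 and 338. Requiring a mean of at least 5 gave 823 circRNAs in 573 hosts, with 10 hosts of 5 or more, and a mean of at least 10 gave 280 in 229, with 0. The share of the absent exon circRNAs that span 10 kb or more was then 46.2% and 45.8%. The share with an end shared with a listed circRNA was 42.5% at a mean of at least 10, and tolerances of 2 and 10 bases left it at 49.6%. In the rat libraries the replicate block gave 312 lower and 55 higher hosts. Hosts with 3 or more members gave 81 and 2, and those with 5 or more 38 and 0. Leaving out each library gave 71 to 122 lower and 4 to 7 higher hosts. Pseudocounts, filters, no scaling and no trend gave 122 to 172 lower and 10 to 13 higher. The causes of these differences were not tested beyond the smaller or larger sets that the settings themselves select. For the 54 named rat hosts no alternative reversed a fold change, 27 passed in every fit in which they were tested (the filter at 5 removed Msh3, Nalcn, Ppp1r9a and Vps13a), and without a library 121 of 324 fits did not pass. Depth is unknown for both tables, the circRNA means have no replicates, and 3 libraries a group limit the rat test.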

Other observations

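Members without an entry in any of the 3 catalogues numbered 289 (6.66%), in 220 hosts, with a median mean of 1.04. The most abundant of them was circ_01788 of Gm6999, with a mean of 15.5 over 36354 bases on chromosome 14. It was followed by circ_02418 of the ceramide kinase-like gene Cerkl, with 11.9 over 24507 bases on chromosome 2, and circ_04191 of the same gene, with 6.88 over 24647 bases, ends at the same donor. Ccdc162 had circ_04912 (8.53) and circ_03366 (5.41), and the androglobin gene Adgb had circ_05740 (6.84). These genes were chosen after their values were seen.

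Members were nearly all from protein-coding genes (4319 of 4342, 99.5%), and 22 came from long noncoding RNA genes. Of these, circ_00565 of A230057D06Rik had a mean of 55.6 over 16930 bases. It shared its donor with a listed circRNA. The next were circRNAs of Gm6999 (15.5) and A230072E10Rik (13.9), and the noncoding 9030622O22Rik had circ_04090 at 9.70 over 49325 bases.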
